A study of Mus musculus with 56 samples.

Results

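The genes described are the mouse beta-defensins and the 2 Spag11 genes, taken as every gene of the count table whose GENCODE M21 symbol is Defb followed by a number, together with Spag11a and Spag11b. The rule found 44 genes among the 53379 in the table. They were followed in 56 RNA-seq libraries from male C57BL/6 mice, 4 from each of 7 regions at 3 months of age and 4 from each at 21 months, with no treatment or engineered allele. The regions were the testis, the efferent ductules that leave it, the initial segment, caput, corpus and cauda of the epididymis, and the vas deferens, all dissected by hand. Tissue of both sides of a mouse was combined, and each library holds every cell type of its region, so fewer cells of a type and less RNA per cell cannot be told apart. The study used 4 mice of each age and took all 7 regions from the same animals, so libraries of different regions share mice, but the labels do not tie a library to its mouse and the fits treat the libraries as independent.

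Beta-defensins are small secreted cationic peptides with a conserved pattern of cysteines, and many of them kill bacteria by disrupting membranes. In the epididymis they are made by the epithelium, released into the lumen and bound to the sperm coat, and several are known to affect sperm motility, capacitation and fertility. Spag11 genes arose from fused beta-defensin genes and encode secreted sperm-binding proteins, and they lie among the defensins of chromosome 8.

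Library totals ran from 11125279 to 20561967 counts, with a median of 16384049. Levels are given as CPM (read counts relative to the library total, scaled by TMM factors over all 56 libraries), and since longer genes give more reads at the same level, the order of genes within a region is given per kilobase of exon. Each region's marker genes had their highest mean sum there at both ages, but not every list was confined to its region. At 3 months, summed caput markers of the initial segment libraries (15400 to 27300 CPM) overlapped those of the caput libraries (23400 to 29900). Cauda markers overlapped too at that age, with corpus libraries at 11800 to 17600 CPM and cauda libraries at 11300 to 19700. Initial segment markers (Adam28, Cst8, Lcn8, Rnase10 and Ros1) summed to between 15700 and 20900 CPM in the initial segment and to at most 3.46 CPM in the 3-month efferent ductules. One library, caput 3-month replicate 2, had 49.7% of its counts on Gm42418, a locus that overlaps ribosomal RNA sequence. In the efferent ductules of 21-month-old mice, libraries 2 and 3 stood apart from libraries 1 and 4, with 791 and 342 CPM of these markers against 3.01 and 3.0, and results that rest on them are given with and without them.

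Of the 44 genes, 32 reached a mean of 10 CPM in at least 1 of the 14 groups of region and age. Defb46, Defb5 and Defb7 had 0 counts in all 56 libraries. Defb3, Defb8, Defb4, Defb50, Defb34 and Defb6 had between 5 and 238 counts over all libraries, and their highest group means were at most 1.16 CPM. The remaining 3 stayed below 10 CPM. Defb10 was highest in the cauda at 8.01 ± 0.92 CPM (mean ± SD, n = 4) at 3 months, Defb14 in the corpus at 4.85 ± 1.19 and Defb35 in the caput at 3.12 ± 1.76. Defb14 and Defb4, which are known as inducible epithelial defensins, were thus among the low genes in every region of these mice.

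The genes lay in 6 places on 4 chromosomes of GRCm38. Defb18 and Defb41 were on chromosome 1 (chr1:18236473-18265138). A block of 11 genes, from Defb23 to Defb25, was on chromosome 2 (chr2:152459055-152623053). Chromosome 8 held a proximal block of 16 genes with both Spag11 genes (chr8:18974940-19497775), Defb33 alone (chr8:20892669-20897723) and a distal block of 9 genes from Defb1 to Defb13 (chr8:21776599-21948850). Deletion of that distal block is known to leave male mice infertile. The remaining 5, Defb48, Defb47, Defb43, Defb30 and Defb42, were on chromosome 14 (chr14:62977524-63058149).

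Transcripts of a few members resemble each other, which could split or remove reads. Defb12 and Defb35 were 97.5% identical over 202 bases, and Defb9 and Defb10 were 97.8% identical over 91 bases. Exons of Spag11a and Spag11b overlapped those of the annotated gene Gm45826 on the same strand, with 187 identical bases for Spag11a. A stretch of 99 bases of Defb42 was 96.0% identical to Ap1g1. The levels of these 7 genes are therefore less certain than those of the others. Exons of Defb15 overlapped those of Gm36879 on the opposite strand. The strand setting of the counts is not given, so the level of Defb15 may share this limit.

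RefSeq promoter sequences (GRCm38.p6) were found for 29 of the 44 genes, with 2 starts for Defb21. Searched on both strands over the 250 bases before each start, AGAACA, a core hexamer of steroid hormone response elements, was present in 14 of 30 member promoters (46.7%) and in 16.1% of all 32851 promoters. TATAAA was present in 5 of 30 (16.7%) and in 12.4% of all. The median G+C content was 47.6% in the member promoters and 52.4% in all promoters. Among members with a mean of at least 10 CPM, AGAACA was found in 3 of 8 promoters of genes highest in the caput, 3 of 7 highest in the corpus, 3 of 5 highest in the initial segment, 1 of 2 highest in the testis and 0 of 1 in the cauda. It was also present before Defb46, Defb3 and Defb8, which had 0 or few counts. The sequences below are the 250 bases before the start of the 5 genes with the match closest to it, 5′ to 3′ on the gene's strand, with matches to AGAACA or TATAAA on either strand in capitals. They are shown because these genes differ in the region of highest expression while holding the same hexamer near their starts, and they were chosen after the matches were seen. Defb23 (chr2:152464621-152464870, minus strand), Defb15 (chr8:21932711-21932960, minus strand) and Defb30 (chr14:63037847-63038096, minus strand) were highest in the caput. Defb48 (chr14:62984511-62984760, minus strand) was highest in the initial segment and Defb43 (chr14:63011521-63011770, plus strand) in the corpus.
Defb23: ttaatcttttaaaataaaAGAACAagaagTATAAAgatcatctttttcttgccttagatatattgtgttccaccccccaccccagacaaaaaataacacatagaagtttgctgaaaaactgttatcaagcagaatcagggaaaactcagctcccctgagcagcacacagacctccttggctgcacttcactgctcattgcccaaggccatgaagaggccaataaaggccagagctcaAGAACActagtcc
Defb15: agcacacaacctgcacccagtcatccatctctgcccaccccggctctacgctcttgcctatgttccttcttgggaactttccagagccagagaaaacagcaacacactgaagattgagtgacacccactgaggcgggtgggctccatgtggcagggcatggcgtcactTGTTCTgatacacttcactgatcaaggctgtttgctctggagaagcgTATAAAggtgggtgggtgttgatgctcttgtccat
Defb30: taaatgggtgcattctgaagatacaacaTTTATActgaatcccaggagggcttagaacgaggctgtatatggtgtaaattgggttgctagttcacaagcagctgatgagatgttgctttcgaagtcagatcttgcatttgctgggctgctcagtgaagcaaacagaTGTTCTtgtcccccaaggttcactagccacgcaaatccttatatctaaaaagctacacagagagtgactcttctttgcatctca
Defb48: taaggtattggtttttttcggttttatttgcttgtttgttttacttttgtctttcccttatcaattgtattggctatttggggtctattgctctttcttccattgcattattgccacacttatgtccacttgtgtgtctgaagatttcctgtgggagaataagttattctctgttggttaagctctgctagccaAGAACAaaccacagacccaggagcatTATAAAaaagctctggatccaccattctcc
Defb43: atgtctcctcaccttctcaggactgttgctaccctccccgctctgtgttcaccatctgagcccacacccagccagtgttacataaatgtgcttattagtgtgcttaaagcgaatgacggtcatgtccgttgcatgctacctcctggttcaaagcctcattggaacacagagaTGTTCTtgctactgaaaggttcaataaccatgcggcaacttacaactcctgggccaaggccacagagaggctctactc
In Defb15 and Defb48 the sequence TATAAA lay on the gene's strand between 20 and 40 bases before the start, a place where it was found in 1.99% of all promoters. A match is only a description of these letters.

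Expression of the group was concentrated in the epididymis. At 3 months the 44 genes together took 1.08% ± 0.16 (SD, n = 4) of all initial segment counts, 0.539% ± 0.20 of those of the caput, 0.326% ± 0.028 of those of the corpus and 0.145% ± 0.031 of those of the cauda. Their share was 0.0506% ± 0.002 in the vas deferens, 0.01% ± 0.00028 in the testis and 0.00189% ± 0.00025 in the efferent ductules. A few genes carried most of it. Defb20, Defb25 and Spag11b made up 68.7% of the summed level in the initial segment, and Defb42 alone made up 71.9% in the vas deferens. These are shares of summed CPM and so weigh long genes more: per kilobase of exon Defb42 was at 129.8 and Defb43 at 109 CPM in the vas deferens. The widest choice was found in the caput, where 23 genes had a mean of at least 10 CPM, while the initial segment had 15 such genes, the corpus 15, the cauda 12, the vas deferens 5, the testis 3 and the efferent ductules 0.

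**Figure D1:**
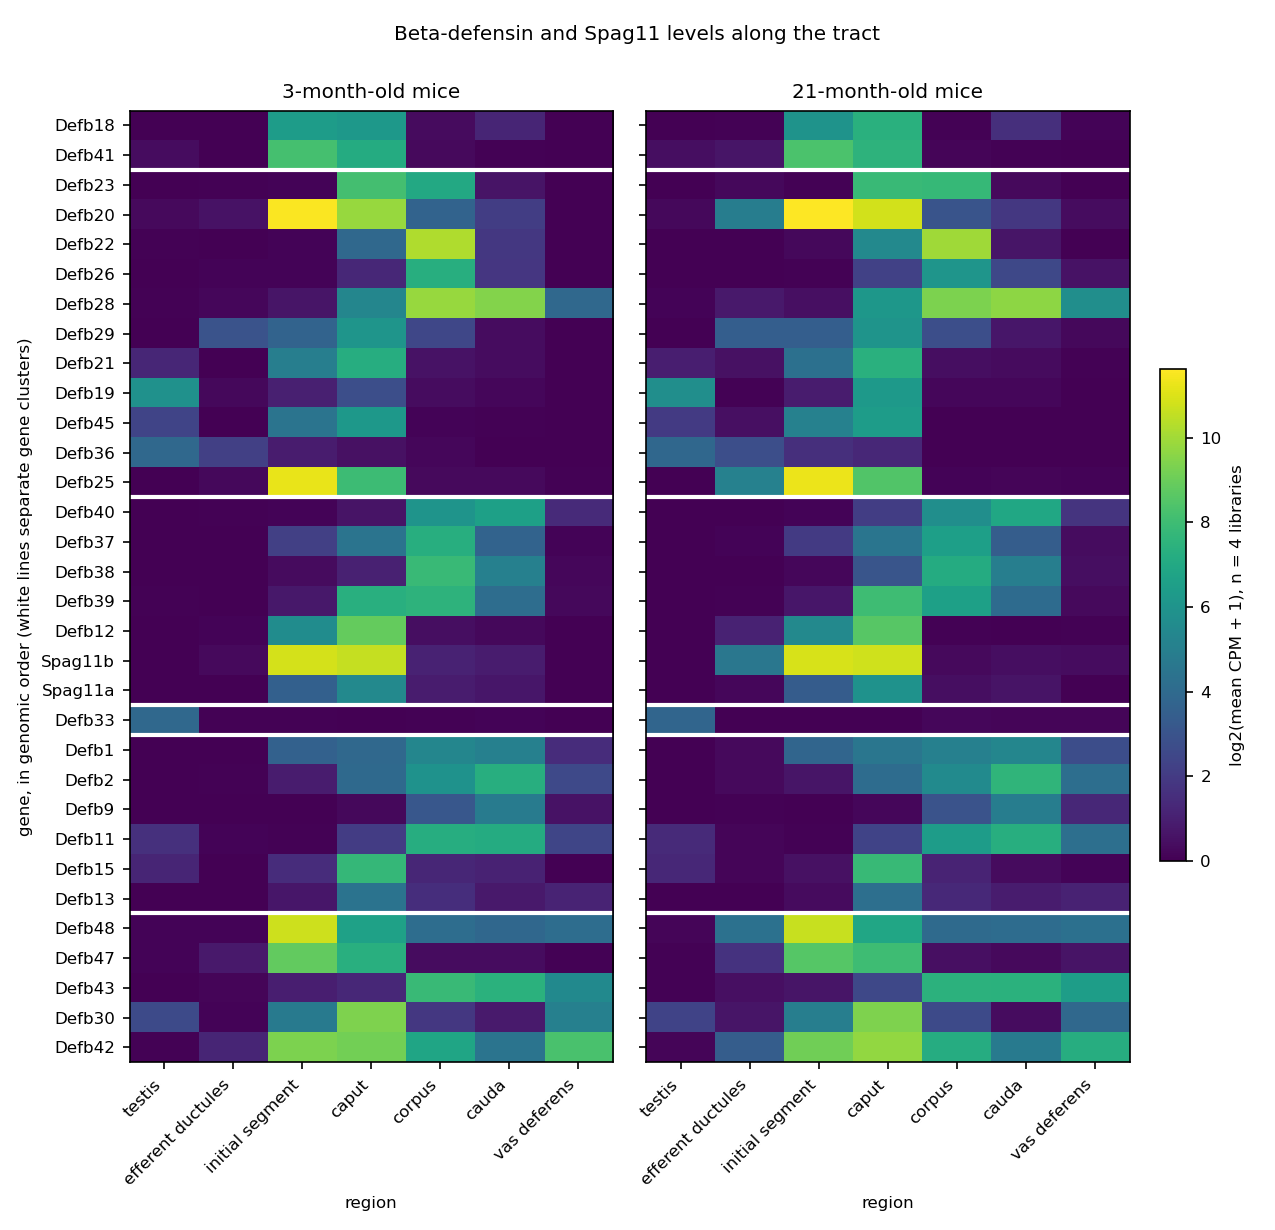
Mean levels of the 32 members that reached 10 CPM, as log2(mean CPM + 1) over 4 libraries, with regions in anatomical order on the horizontal axis and genes in genomic order on the vertical axis; white lines separate the gene clusters. Colour shows that most members were high in 1 or 2 neighbouring epididymal regions and that adjacent genes of a cluster often peaked in different regions.

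Along the tract, neighbouring regions of 3-month-old mice were compared in 1 fit of 28 libraries, and a gene was called at an adjusted p under 0.05 (edgeR quasi-likelihood test, Benjamini-Hochberg over 34475 genes) and a fold change of at least 4. Of 39 members tested, 26 were higher in the initial segment than in the efferent ductules, against 5.1% of all genes, and 1, Defb36, was lower (10.8%). From the initial segment to the caput 20 members rose (all genes, 4.39%) and 3 fell (3.36%), namely Defb6, Defb25 and Defb48. From caput to corpus 13 rose (4.88%) and 17 fell (5.84%), the most calls between neighbouring regions of the epididymis. From corpus to cauda 2 rose (3.15%), Defb10 and Defb6, and 8 fell (2.57%). From cauda to vas deferens 29 fell (9.48%) and 2 rose (2.67%), Defb42 and Defb30. Between testis and efferent ductules 3 were higher in the ductules (19.5%), Defb29, Defb42 and Defb47, and 10 were lower (29.3%). In 21-month-old mice 13 were higher in the ductules (20.1%) and 8 lower (28.9%). Without the old efferent ductule libraries 2 and 3 it was 6 higher (17.8%) and 9 lower (27.0%). From cauda to vas deferens 18 fell (6.37%) and 2 rose (5.03%) at that age.

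Initial segment genes had the highest levels of the group. Defb20 (ENSMUSG00000049560, chr2:152477063-152479934) read 2454, 2647, 2702 and 4379 CPM in the 4 initial segment libraries at 3 months, and 687, 700.2, 1632 and 585 CPM in the caput. Defb25 read 2423, 2055, 2596 and 2526 CPM in the initial segment, with no overlap with its caput values of 156, 109, 527 and 193 CPM. Defb48 fell 18.3-fold from the initial segment to the caput (log2 difference -4.19 ± 0.21, SE, adjusted p = 6.51e-16), from 2128, 1475, 1760.2 and 1389.5 CPM to 84.9, 85.5, 140.2 and 88.1 CPM. All 3 were within 1 CPM of 0 in the 3-month efferent ductules, the region just upstream. Per kilobase of exon the order in the initial segment was Defb25 (8191 CPM per kilobase), Defb20 (4414), Defb48 (3794), Defb47 (1270) and Spag11b (1077). Defb41, whose locus has been used to drive Cre recombinase in the proximal epididymis, was also highest here, at 253, 279, 269.6 and 383 CPM.

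Spag11b, the sperm-binding family member, was about equally high in the initial segment and the caput. It read 1446, 1798, 1383 and 2869.8 CPM in the former and 1246, 1983, 1708 and 1216 CPM in the latter, and these ranges overlapped. From caput to corpus it fell 1300-fold (log2 difference -10.3 ± 0.61, SE, adjusted p = 5.76e-14). Its neighbour Spag11a was much lower, with a caput mean of 42.8 ± 7.06 CPM (SD, n = 4) and an initial segment mean of 11 ± 8.01. Defb47 and Defb18 also spanned both regions, and their libraries spread widely. Defb47 read 239.5, 402, 304 and 879 CPM in the initial segment and 81.4, 116, 377 and 59.5 CPM in the caput, and Defb18 had means of 83.7 ± 68.1 and 72.1 ± 37.8 CPM.

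The 9 members highest in the caput at 3 months were Defb30, Defb12, Defb23, Defb15, Defb21, Defb45, Defb29, Spag11a and Defb13. Per kilobase of exon Defb15 (621 CPM) stood above Defb30 (505). Defb30 read 539, 542, 636 and 976 CPM, and its level was 23.7-fold above the initial segment (adjusted p = 1.93e-14) and 233-fold above the corpus (adjusted p = 2.73e-18). Defb15 was the most sharply bounded, with 186, 238, 191 and 241 CPM in the caput and a mean of 1.77 ± 2.17 CPM in the initial segment, the next highest region. Defb12 had a caput mean of 468 ± 116 CPM and fell 1260-fold at the step to the corpus (adjusted p = 8.83e-17). Defb23 reached 283 ± 72.5 CPM in the caput, 129 ± 38.2 in the corpus, and was 229-fold lower in the cauda than in the corpus (adjusted p = 2.8e-15).

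Per kilobase of exon, Defb28 (2295 CPM) and Defb22 (1949) were the highest members in the corpus. Defb22 is the mouse counterpart of the glycosylated defensin that coats primate sperm. Defb22 read 1352, 1337, 916 and 1289 CPM in the corpus, 50.7, 1.11, 0.17 and 5.59 CPM in the caput and a mean near 0 in the initial segment. The caput libraries differed widely among themselves, and the lowest corpus library was far above the highest of them. From corpus to cauda Defb22 fell 438-fold (adjusted p = 2.73e-09). Defb26, Defb38 and Defb37 were also highest in the corpus, at 156 ± 48.6, 232 ± 83.4 and 154 ± 40 CPM, and Defb39 was shared by caput (163 ± 44.8) and corpus (184 ± 40.4) with overlapping libraries.

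Several members extended from the corpus into the cauda. Defb28 read 1067, 886, 847 and 845 CPM in the corpus and 832, 871, 433 and 674 CPM in the cauda, overlapping ranges, and supplied 48.4% of the summed level of the group in the cauda. Defb11 ranges also overlapped, with a corpus mean of 151 ± 16.2 CPM and a cauda mean of 142 ± 32.8. Defb43 went from 235 ± 21.6 to 170.0 ± 36.2 CPM, and its corpus libraries all lay above its cauda ones. Defb1, the constitutive epithelial defensin of many organs, was spread over 4 epididymal regions, from 11.2 ± 3.62 CPM in the initial segment to 39.6 ± 5.17 in the corpus and 31.9 ± 2.55 in the cauda. Only Defb2, Defb40 and Defb9 of the members at 10 CPM were highest in the cauda at 3 months. Defb2 read 172, 190.2, 103 and 161 CPM there and 67.3, 74, 50.7 and 48.8 CPM in the corpus, with no overlap.

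Defb42, like Defb48, had means of at least 10 CPM in every epididymal region and in the vas deferens at 3 months. Defb42 read 615, 625, 615 and 710.4 CPM in the initial segment and 537, 527, 609 and 606 CPM in the caput, dropped to 21.1 ± 5.30 CPM in the cauda, and rose again 13-fold in the vas deferens (log2 difference 3.70 ± 0.18, SE, adjusted p = 1.18e-16), to 312, 316, 313 and 318 CPM. Defb30, the adjacent gene on the opposite strand, whose locus overlaps that of Defb42, also rose from cauda to vas deferens, 35.6-fold (adjusted p = 9.09e-14), to 35.4, 23.2, 35.4 and 35.9 CPM. These were the 2 members called higher in the vas deferens.

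**Figure D2:**
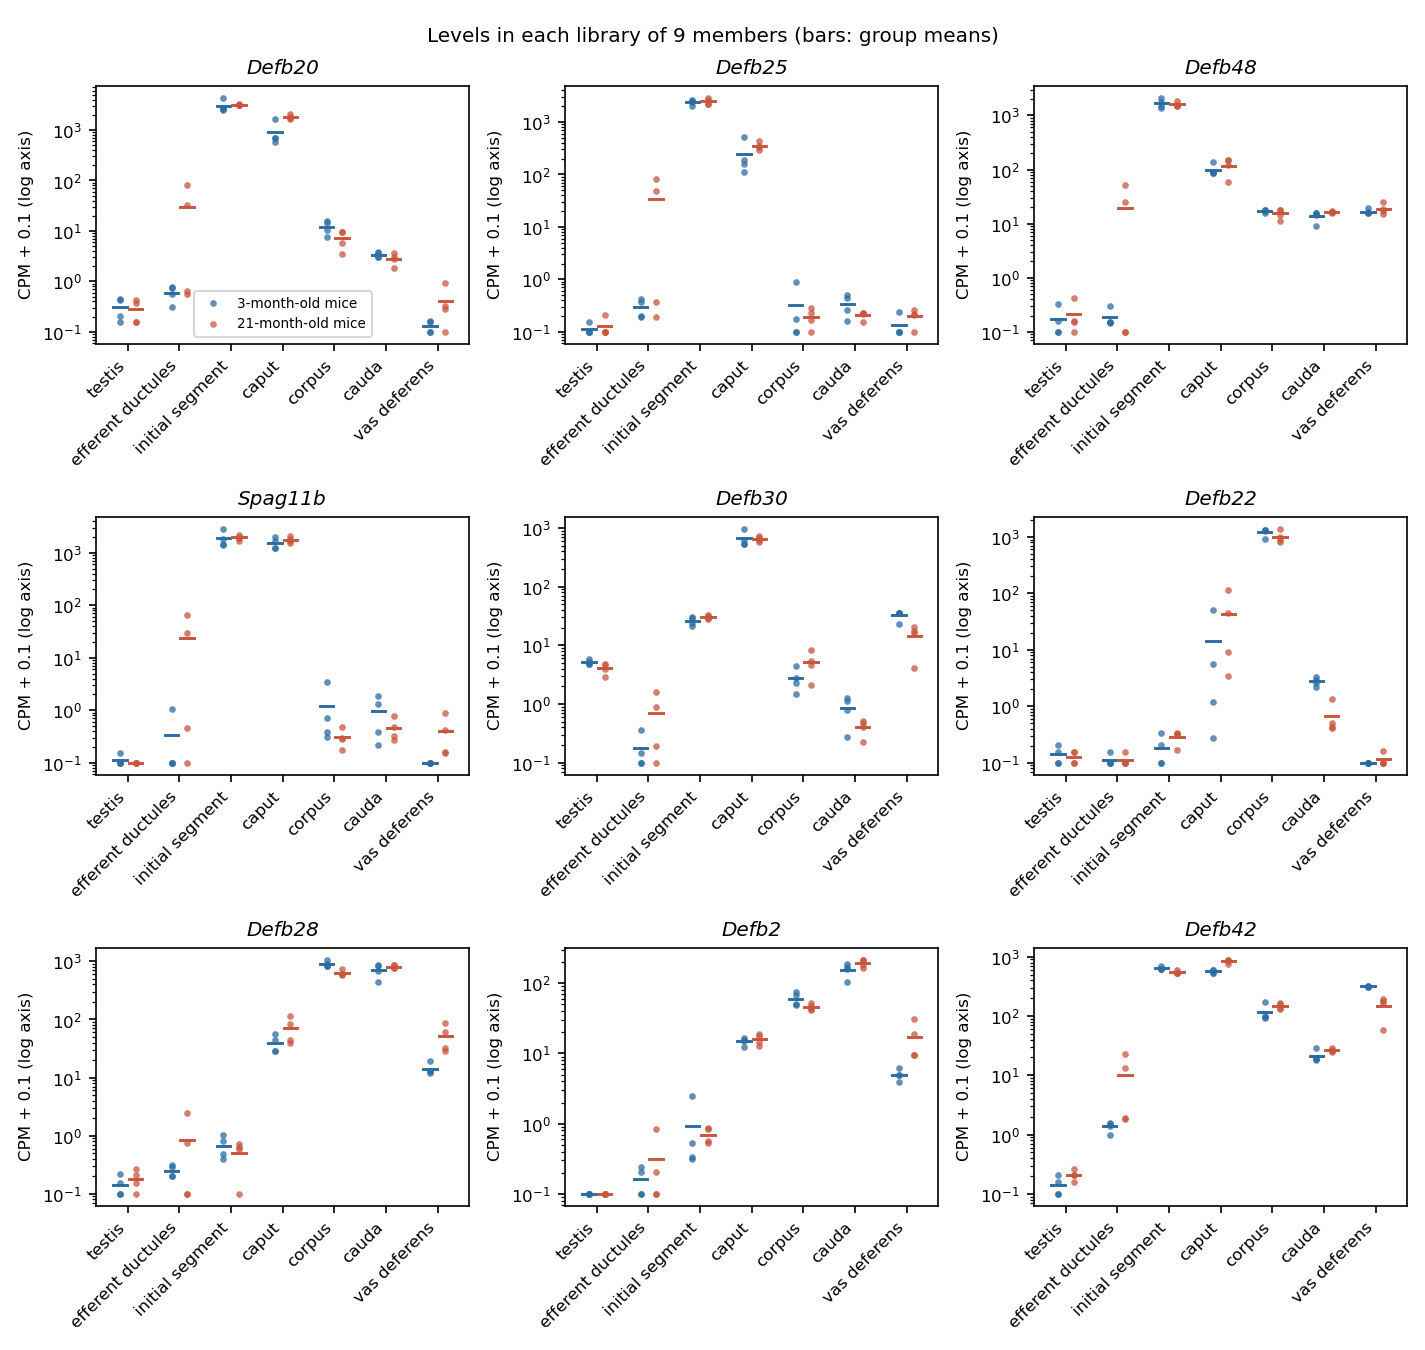
Levels of 9 members in every library, as CPM + 0.1 on a log axis, by region in anatomical order; points are single libraries, bars are group means, and colours mark the ages. Defb20, Defb25, Defb48 and Spag11b were highest in the initial segment, Defb30 in the caput, Defb22 in the corpus, Defb28 in corpus and cauda, and Defb2 in the cauda. Defb42 was high in the initial segment and caput, lower in the cauda and higher again in the vas deferens.

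The testis had 3 members of its own. Defb19 read 53.4, 64.2, 58.9 and 53.1 CPM at 3 months and Defb36 14.3 ± 0.306 CPM, both genes of the chromosome 2 block, and Defb33, alone on chromosome 8, read 16.2, 13.6, 12 and 14.4 CPM. Defb33 was the most restricted, since its next highest region, the cauda, had a mean of 0.0858 CPM. In the efferent ductules the highest member was Defb29, at 7.19, 6.75, 5.44 and 7.6 CPM, against a caput mean of 66.3 ± 17.4 CPM.

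Within a cluster, neighbours did not generally share their region. Of the 26 pairs of adjacent members at 10 CPM, 9 (34.6%) had the same region of highest mean at 3 months, compared with 21.6% of all 102 pairs within a cluster and 21.3% of the 394 pairs from different clusters. The pairs share libraries and are given as a description. Members of the chromosome 2 block peaked in 4 regions, with Defb20 (initial segment) next to Defb22 (corpus) and Defb36 (testis) next to Defb25 (initial segment). On chromosome 14 the order of genes was Defb48 and Defb47 (initial segment), Defb43 (corpus), Defb30 (caput) and Defb42 (initial segment). Runs of like genes were Defb22, Defb26 and Defb28 (corpus), and Defb37, Defb38 and Defb39 (corpus). Between the ages, 25 of the 32 members kept the same region of highest mean. The other 7 were Defb18, Defb28, Defb19, Defb39, Defb1, Defb11 and Defb42.

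Age was tested in each region separately (21 against 3 months, 8 libraries, edgeR quasi-likelihood test, adjusted over all genes tested). In the caput 8 of 36 members tested rose and 0 fell, against 3.09% of all genes called higher and 5.05% called lower. The median log2 difference was 0.37 over the members tested and -0.01 over all genes. The largest was that of Defb19. It read 3.71, 7.96, 4.3 and 7.65 CPM at 3 months and 48.9, 40.2, 132 and 89.8 CPM at 21 months, and the lowest old library lay above the highest young one. The difference was 13.7-fold (log2 3.78 ± 0.38, SE, adjusted p = 0.000288), and at 21 months the caput mean of 77.8 ± 42.3 CPM stood above the testis mean of 52.8 ± 6.40. In the testis Defb19 was not called with age (log2 -0.13 ± 0.08, adjusted p = 0.586). Defb36, the other testis gene of the block, rose 3.52-fold in the caput (adjusted p = 0.0106) but only from 0.438 ± 0.143 to 1.44 ± 0.346 CPM. Defb45, which lies between Defb19 and Defb36, was not called (adjusted p = 0.286). The summed testis markers (Prm1, Prm2, Tnp1, Oaz3 and Ldhc), all germ cell genes, read 89.2, 129, 97.1 and 138 CPM in the caput at 3 months and 79.1, 86.3, 73.4 and 70.3 at 21 months, and Prm1 and Prm2 were called lower. Their part in the age differences was not tested.

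The remaining 6 members that rose in the caput changed less. Defb42 went from 537, 527, 609 and 606 CPM to 878, 841, 892 and 769 CPM (log2 0.57 ± 0.11, SE, adjusted p = 0.0081), without overlap. Defb39 went from 113, 159.9, 155 and 222 CPM to 289, 258, 271 and 226 CPM (log2 0.68 ± 0.17, adjusted p = 0.026), and Defb1 from 14.2 ± 1.69 to 22.5 ± 3.60 CPM (adjusted p = 0.0158). Both sets of libraries were again separate between ages. Defb20 went from 687, 700.2, 1632 and 585 CPM to 1841, 2053, 1629 and 1746 CPM (log2 1.01 ± 0.26, adjusted p = 0.0351), and young library 3 lay among the old ones. Defb18 (2.3-fold, adjusted p = 0.0271) and Spag11a (1.37-fold, adjusted p = 0.0385) were the last of the 8. With 1 library left out, Spag11a was called in 1 of 8 fits, Defb20 in 2, Defb18 in 3, Defb39 in 4 and Defb1 in 6. Defb20 was not called by DESeq2 (adjusted p = 0.0791), nor were Defb20 and Spag11a in a fit of all 56 libraries (edgeR adjusted p = 0.235 and 0.307). The other 17 members at 10 CPM in the caput had log2 differences from -0.25 to 1.49, and the widest, Defb22, had an adjusted p of 0.434. Library 3 of the young caput, the one high in Defb20, Defb25 and Defb47, also had the highest sum of initial segment markers of its group, 2890 CPM against 1350 to 1600, while the old caput libraries had 1740 to 3050, and the part of this in the age differences was not tested. Smooth muscle markers fell in the old caput in 5 of 5 genes. T cell markers summed to 1.54 to 3.66 CPM in the young and 5.88 to 11.1 in the old caput, where 2 of 5 rose, and 2 of 5 macrophage markers rose. The part of these in the age differences was not tested. The count of 8 became 13 without young library 1, 5 without young library 4 or old library 3 or 4, and 3 without old library 1 or 2, and it was 6 without young library 2, the one rich in Gm42418. Refit counts, here and below, lack the share of all genes unless it is printed. Such counts cannot tell a change of the members from a change of the whole fit. With library size in place of TMM factors the median of all genes moved to 0.19, and 9 members were called, 4 of them among the 8. Defb19, Defb36 and Defb42 were called in all 8 fits with 1 library left out, but Defb42 was not called with library size only (adjusted p = 0.209) or in a fit of all 56 libraries (adjusted p = 0.271).

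In the corpus the direction was opposite: 5 of 36 members fell and 0 rose, against 1.47% and 1.5% of all genes. The median log2 difference was -0.45 over the members and -0.01 over all genes. Defb11, of the distal chromosome 8 block, went from 158, 149, 129.9 and 168 CPM to 103, 75.4, 88.8 and 72 CPM (log2 -0.84 ± 0.12, SE, adjusted p = 0.000878). Defb26 went from 121, 169, 113 and 218 CPM to 103, 58.4, 40.8 and 60 CPM (log2 -1.25 ± 0.23, adjusted p = 0.00678). Defb39 went from 150.4, 202, 150.4 and 232 CPM to 134, 83.3, 76.7 and 93.8 CPM (log2 -0.93 ± 0.17, adjusted p = 0.00574). In each of these the old libraries all lay below the young ones. Defb28 (0.698-fold, adjusted p = 0.0103) and Defb37 (0.606-fold, adjusted p = 0.0199) were the others called. Defb22 was not called, at 1401, 873, 798 and 983 CPM in the old mice (adjusted p = 0.383), nor was Defb38, whose ranges did not overlap (0.612-fold, adjusted p = 0.0504). In all, 13 of the 15 members at 10 CPM had a negative difference, the exceptions being Defb23 and Defb42. Beside these values, summed cauda markers ran from 11800 to 17600 CPM in the young and from 9230 to 9890 in the old corpus, and corpus markers from 9270 to 11100 and from 7830 to 9380. T cell markers summed to 3.81 to 5.16 CPM in the young and 6.44 to 10.8 in the old corpus, where 0 of 5 were called, and Gm42418 took 10.4% to 26.3% and 17.0% to 36.0% of the counts. The part of these in the age differences was not tested. Without old library 2 the count was 3. Defb11, Defb26 and Defb39 were called whichever library was left out, and Defb28 and Defb37 in 6 of 8 such fits. In a fit of all 56 libraries Defb39 alone was called, with adjusted p-values of 0.198 for Defb11, 0.171 for Defb26, 0.137 for Defb37 and 0.596 for Defb28.

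**Figure D3:**
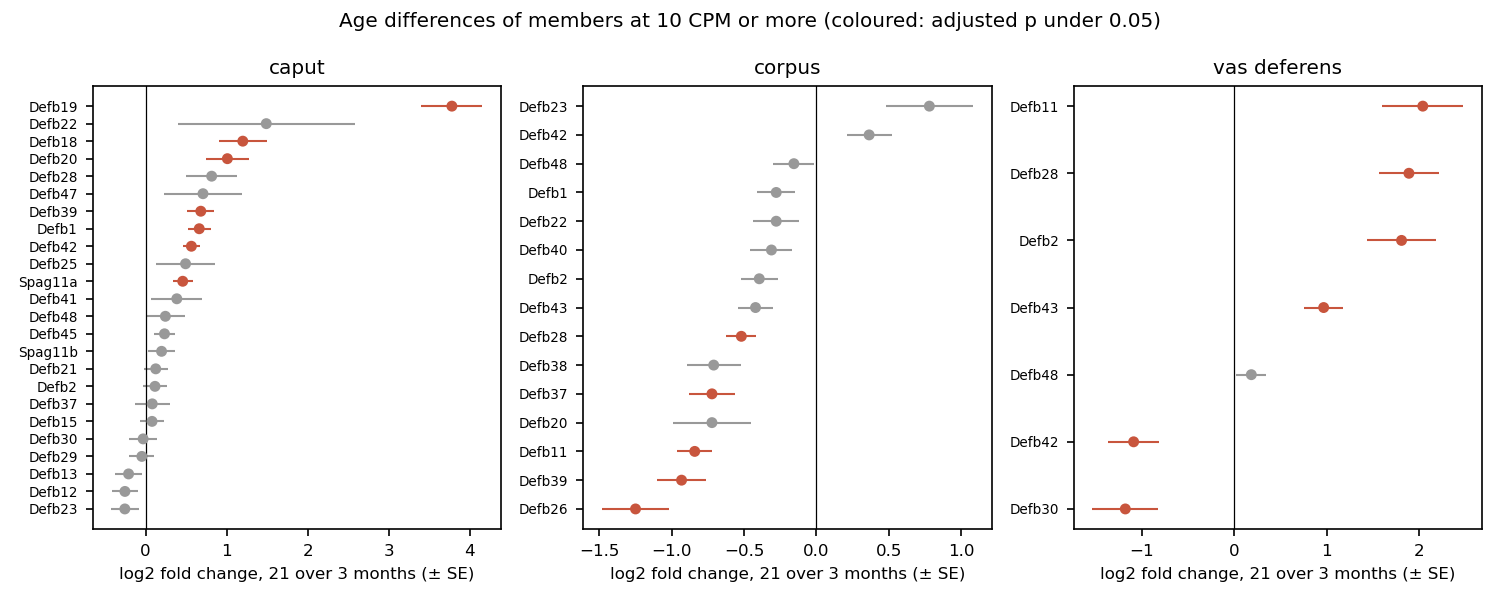
Log2 fold change between 21-month-old and 3-month-old mice, with its SE, for members with a mean of at least 10 CPM at either age in caput, corpus and vas deferens (edgeR, 4 libraries per group); coloured points had an adjusted p under 0.05. Called members lay above 0 in the caput and below 0 in the corpus, and on both sides in the vas deferens.

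Whether the age difference itself varied among the 4 epididymal regions was tested with an interaction term in 32 libraries. It did in 9 of 40 members, against 6.25% of all genes. Defb19 (adjusted p = 4.69e-05) and Defb39 (adjusted p = 0.00122) had the smallest p. Defb39 had log2 differences of -0.20, 0.68, -0.93 and -0.08 in initial segment, caput, corpus and cauda. At 3 months its caput and corpus ranges overlapped, and at 21 months its caput libraries all exceeded the corpus ones. The other 7 were Defb20, Defb15, Defb40, Defb26, Defb38, Defb36 and Defb1. Of these, Defb40, Defb38 and Defb26 had group means of at most 7.37 CPM in the caput, where part of the contrast lay. Defb15 was below 2 CPM on average in every epididymal region but the caput, and its log2 differences were -2.0, 0.08, -0.15 and -2.24 in the same order of regions. Without replicate number 2, 3 or 4 the count was 3, 4 and 4.

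**Figure D4:**
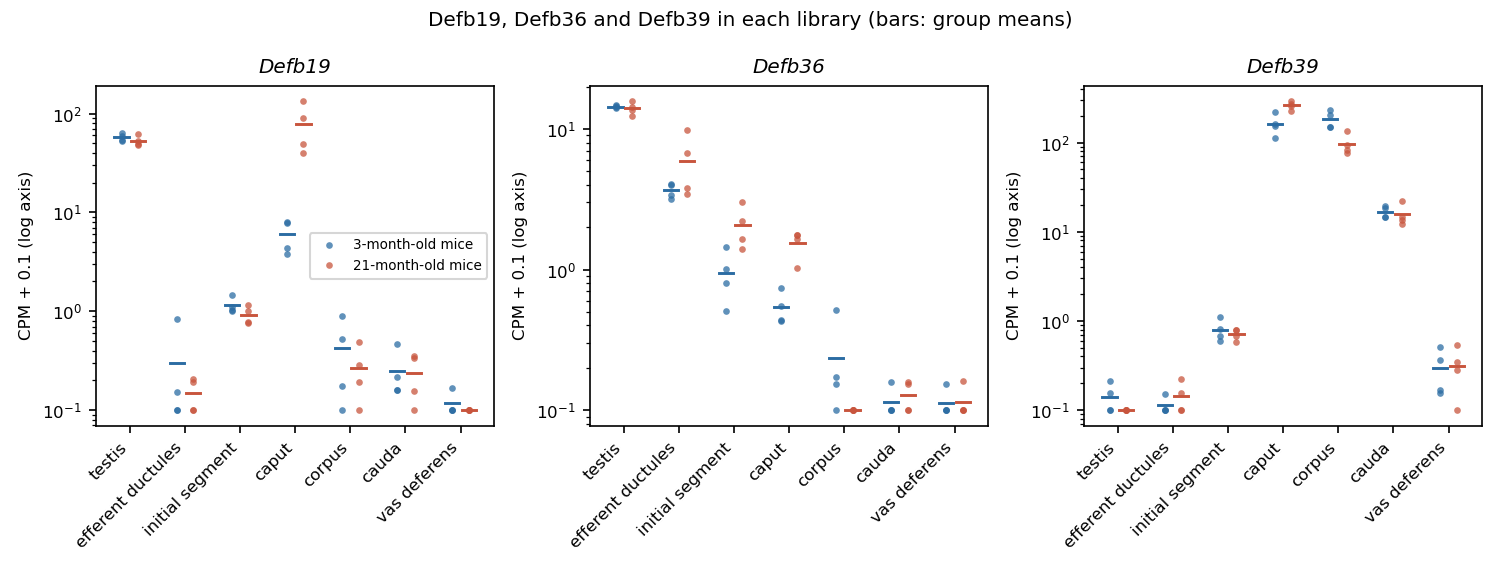
Defb19, Defb36 and Defb39 in every library, as CPM + 0.1 on a log axis, by region; points are single libraries, bars are group means and colours mark the ages. Defb19 was similar in the testis at both ages and higher at 21 months in the caput, and Defb39 was higher in the old caput and lower in the old corpus.

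Few members were called in the initial segment and the cauda by the same tests. In the initial segment 1 of 31 members was called, Defb21, which fell from 32, 35.2, 36 and 16.7 CPM to 19.4, 18, 16.1 and 21 CPM (log2 -0.70 ± 0.19, SE, adjusted p = 0.0422), against 3.01% of all genes called lower, and 0 rose (all genes, 3.35%). This call was kept in 1 of 8 fits with a library left out, the one without young library 4, whose value of 16.7 CPM lay within the old range, and the highest adjusted p was 0.14. Defb42 was lower without overlap, at 641 ± 46.3 CPM in the young and 552 ± 34.0 in the old initial segment (adjusted p = 0.0835), as was Defb12, at 49.8 ± 2.14 and 43.0 ± 3.43 CPM (adjusted p = 0.11). Defb20, Defb25, Defb48 and Spag11b had log2 differences of 0.05 ± 0.14, 0.04 ± 0.10, -0.08 ± 0.12 and 0.06 ± 0.18. In the same libraries 5 of 5 testis markers fell, from a mean sum of 61.9 to 14.2 CPM. Of the T cell markers 3 of 5 rose, and 2 of 5 smooth muscle markers fell. The part of these in the age differences was not tested. In the cauda 0 of 36 members were called by edgeR (all genes, 0.128%), 7 had an unadjusted p under 0.05 (10.5%), and DESeq2 called 2 (1.42%). The 2 were Defb22, which averaged 2.66 ± 0.49 CPM at 3 months and 0.57 ± 0.44 at 21 months (edgeR adjusted p = 0.0838), and Defb15, at 1.18 ± 0.13 and 0.247 ± 0.12 CPM (edgeR adjusted p = 0.0643). In both the old libraries lay below the young ones. Defb26 was higher without overlap, at 2.60 ± 1.02 and 4.79 ± 0.92 CPM (adjusted p = 0.322). Members at 10 CPM there had log2 differences from -0.29 to 0.34. Young cauda library 3 stood apart, with 1010 CPM of macrophage markers against 201 to 217 in the others. It had 11300 CPM of cauda markers against 18900 to 19700, and was also the lowest of its group for Defb28 and Defb2. Old cauda library 2 had 736 CPM of epithelium markers against 1140 to 1190 in the others. The part of these in the results was not tested. In the testis 0 of 14 were called by edgeR (0.563%), 2 had an unadjusted p under 0.05 (10.4%), and DESeq2 called 0 (0.617%). At the looser threshold of an unadjusted p under 0.05 and 1.5-fold, the vas deferens had 14 members called (all genes, 17.8%), the efferent ductules 13 (12.8%, and without old libraries 2 and 3 it was 3 of 9, against 20.1%), the corpus 11 (6.84%), the caput 9 (13.2%), the cauda 7 (8.3%), the initial segment 5 (11.5%) and the testis 0 (2.71%). Among those called in the efferent ductules, Defb12, Defb1, Defb21, Defb45, Defb41, Defb30 and Defb48 had under 10 young counts. So did Defb29, Defb14, Defb20, Spag11b, Defb26 and Defb47 in the vas deferens. They were tested only through the old libraries in which they were high, so they add no support to those counts.

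In the vas deferens 9 of 21 members rose and 2 fell, where 11.4% of all genes rose and 8.47% fell. The 2 that fell were those called higher here than in the cauda in young mice, although neither was highest in the vas deferens. Defb42 went from 312, 316, 313 and 318 CPM to 176, 197, 165 and 58.6 CPM (log2 -1.09 ± 0.28, SE, adjusted p = 0.0197). Defb30 went from 35.4, 23.2, 35.4 and 35.9 CPM to 20.2, 16.2, 17.4 and 3.97 CPM (log2 -1.18 ± 0.36, adjusted p = 0.0415). Old library 4 was the lowest for both, and all old libraries lay below the young ones. The genes that rose were mostly those of corpus and cauda. Defb28 went from 12.7, 18.9, 12.9 and 11.8 CPM to 28, 32.6, 61.9 and 85.1 CPM (log2 1.89 ± 0.33, adjusted p = 0.00358). Defb2 rose 3.5-fold (adjusted p = 0.00752) and Defb11 4.1-fold (adjusted p = 0.00954), both highest in old library 4. Defb43 rose 1.95-fold, from 44.7 ± 3.25 to 87.4 ± 32 CPM (adjusted p = 0.0103), and Defb1 3.19-fold, to 5.80 ± 1.19 CPM (adjusted p = 0.000768). Defb9, Defb47, Defb26 and Spag11b were called at means of at most 1.49 CPM. Spag11b, Defb26 and Defb47 had 0, 0 and 4 counts in the young libraries, so they were tested only through the old libraries in which they were high, and the other 6 of the 9 had at least 10 young counts. For Spag11b and Defb26 the old means were at least 6.17-fold and 9.49-fold above a floor of 3 counts over the group.

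Markers moved in the same libraries of the vas deferens. Corpus markers (4 of 5 rose) summed to 113 to 205 CPM in the young libraries and to 216, 343, 438 and 771 in the old ones, and vas deferens markers to 26600 to 29300 and to 25000, 22500, 21000 and 15400. Of the vas deferens markers only 1 of 5, Akr1b7, was called lower, and their median log2 difference was -0.01. All 5 T cell markers rose, with sums of 4.23 to 6.05 CPM in the young and 12.7 to 38.3 in the old libraries, and 3 of 5 epithelium markers rose. Smooth muscle markers rose in 4 of 5 genes, from 11200 to 12000 CPM in the young libraries to between 12500 and 18300 in the old ones. Of the cauda markers 3 of 5 rose, while their sum averaged 8110 CPM in the young and 6690 in the old libraries. Their part in the defensin differences was not tested. The count of 11 fell to 5 or 6 without any 1 young library or without old library 3, and Defb2, Defb1, Defb11, Defb28 and Defb43 were called in all 8 such fits, although Defb43 was not in a fit of all 56 libraries (adjusted p = 0.0572). Defb30, Defb9 and Defb26 were called in 2 of the 8, Defb47 in 3, Defb42 in 5 and Spag11b in 2 of 7. Defb30 was not called by DESeq2 (adjusted p = 0.0589). Spag11b and Defb47 were not called in the edgeR fit of all 56 libraries (adjusted p = 0.358 and 0.151). With the replicate block Defb9, Spag11b and Defb47 were not called.

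In the efferent ductules 5 of 22 members rose and 0 fell, where 4.0% of all genes rose and 2.98% fell. They were Defb25, Defb48, Defb20, Spag11b and Defb42, all highest in the initial segment at 3 months. Defb48, with 7 young counts, was tested only through the old libraries. Defb25 read 0.262, 0.319, 0.0923 and 0.102 CPM in the young and 0.0913, 83.5, 49.3 and 0.273 CPM in the old libraries (log2 7.41 ± 1.71, SE, adjusted p = 0.0296). Defb20 read 0.457, 83.1, 32.8 and 0.546 CPM in the old libraries (adjusted p = 0.0342) and Spag11b 0, 65, 29.2 and 0.364 CPM (adjusted p = 0.0431). In these 3 genes libraries 2 and 3 were high and libraries 1 and 4 stayed near the young level. Defb42 read 1.31, 1.49, 1.43 and 0.867 CPM in the young and 1.83, 23.1, 13 and 1.73 CPM in the old libraries, so that libraries 1 and 4 also lay above the young ones. The summed initial segment markers read 3.01, 791, 342 and 3.0 CPM in the same 4 libraries, and the caput markers 2.28, 543, 144 and 2.82. T cell markers (3 of 5 rose) summed to 2.61 to 3.3 CPM in the young and 8.46 to 10.4 in the old libraries. Macrophage markers (3 of 5 rose) summed to 178 to 207 and to 242 to 324 CPM, and 2 of 5 smooth muscle markers rose. The part of these markers in the age differences was not tested. Without old libraries 2 and 3, a choice made after seeing the data, none of the 5 was called, with log2 differences of -0.01 ± 0.97 (SE) for Defb25, 0.07 ± 0.61 for Defb20, -0.28 ± 1.87 for Spag11b and 0.53 ± 0.34 for Defb42, and Defb48 had too few counts to be tested. Each single young library left out also took all 5 calls away, and 1 remained without old library 2 or 3. The log2 differences stayed large in those fits, from 6.42 to 7.82 for Defb25, 6.48 to 8.38 for Defb48, 4.53 to 6.28 for Defb20, 5.42 to 11.6 for Spag11b and 2.15 to 3.31 for Defb42.

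Without those libraries 2 of 9 members tested rose and 0 fell, against 13.4% of all genes called higher and 13.7% called lower in that fit. They were Defb29 (log2 1.03 ± 0.16, SE, adjusted p = 0.000862) and Defb36 (log2 1.24 ± 0.20, adjusted p = 0.00116). Defb29 read 7.19, 6.75, 5.44 and 7.6 CPM at 3 months and 14.7, 7.06, 7.59 and 11.7 CPM at 21 months. Defb36 read 3.99, 3.3, 3.09 and 3.93 CPM and 9.68, 3.34, 3.73 and 6.64 CPM. For these genes it was libraries 1 and 4 that were high and libraries 2 and 3 that lay within or near the young range, and over all 8 libraries neither was called. Old libraries 1 and 4 also had 22.2% and 18.5% of their counts on Gm42418, against 4.93% and 14.9% in old libraries 2 and 3 and 1.27% to 3.29% in the young ones, and their totals of 11442133 and 11125279 counts were the lowest of the group. Epithelium markers summed to 1290 and 1370 CPM in old libraries 1 and 4, to 935 and 913 in old libraries 2 and 3, and to 799 to 995 in the young ones. Smooth muscle markers summed to 744 and 753, to 629 and 574, and to 515 to 580 CPM in the same order. The part of these in the calls was not tested.

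**Figure D5:**
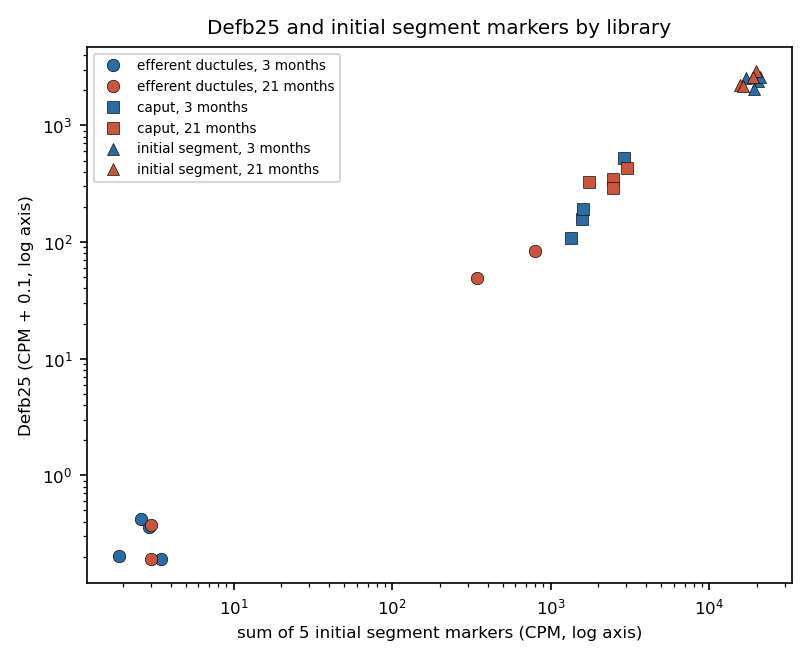
Defb25 (CPM + 0.1) against the summed CPM of the 5 initial segment markers in each efferent ductule, initial segment and caput library, both on log axes; shapes mark the region and colours the age. Of the 8 efferent ductule libraries, 2 old ones stood between the other 6 and the caput on both axes, with 342 and 791 CPM of markers.

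A list of 15 other genes of antimicrobial defence, among them the receptors Ccr6, Tlr2 and Tlr4, was tested in the same fits. Lyz2, the lysozyme of macrophages, was the 1 gene called in efferent ductules (of 13 tested), initial segment (of 10) and caput (of 10), and it rose in each, where 4.0%, 3.35% and 3.09% of all genes rose. Lyz1 fell in the corpus (1 of 13, all genes 1.47%), and edgeR called 0 of 9 in the testis and 0 of 13 in the cauda, with 1 and 4 at an unadjusted p under 0.05 (all genes, 10.4% and 10.5%) and 0 and 2 called by DESeq2 (0.617% and 1.42%). In the vas deferens Lcn2, Ltf, Ccr6 and S100a8 rose and Slpi and Tlr4 fell, of 11 tested (all genes, 11.4% and 8.47%). Ccr6, a chemokine receptor that beta-defensins can bind, averaged 4.18 ± 5.03 CPM in the old vas deferens and 0.12 ± 0.119 in the young (adjusted p = 0.00835). Ltf, the iron-binding lactoferrin of the distal epididymis, reached 1541 ± 505 CPM in the young cauda and was not called there with age (adjusted p = 0.749). Etv5 and Ros1, which respond to testicular luminal signals in the initial segment, had log2 differences of 0.05 ± 0.10 and -0.14 ± 0.07 there.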

How the data were processed

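The series measured RNA by stranded total RNA sequencing in 56 libraries. According to the study's methods and the submitters' processing notes, the authors trimmed reads with cutadapt, aligned them with HISAT2 to mm10 (GRCm38) and counted them with HTSeq; versions, the annotation release and the strand and ambiguity settings are not given in the sources used here. The deposited values are raw read counts per Ensembl gene, not normalized. Gene symbols, positions and exon lengths came from GENCODE M21, promoters from RefSeq.

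Groups are the combinations of region and age in the labels, which also number the replicates. Counts were tested with edgeR 4.0.16 in R 4.3.3 (quasi-likelihood F-test, TMM factors, genes with at least 10 counts in total), with p-values adjusted by Benjamini-Hochberg over all genes tested. Age was tested within each region, neighbouring regions over the 28 libraries of 3-month-old mice, and age by region over the 32 epididymal libraries. Errors of log2 differences are standard errors. The method was tested on simulated data. DESeq2 1.42.0, other scalings and filters, and each library left out were the alternatives. Similar transcripts were found with BLAST 2.17.0 (at least 94% identity over 80 bases). Replicate numbers were taken to pair 2 neighbouring regions where the deviations from group means of every number correlated above 0.1, which held for corpus and cauda at 3 months (0.12 to 0.22) and for no other neighbours, and the blocked count is given with the alternatives. The limit of 0.1 was a choice, and unlike numbers were not compared. Between caput and corpus at 3 months the correlations ran from 0.04 to 0.38, so pairing of other regions was not shown to be absent. Each group has 4 libraries and the study used 4 mice per age.

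Every member is accounted for. Members with a mean of at least 10 CPM in a group are described with values, members called with age are named, and clusters join members under 500 kb apart. The members and lists were chosen with earlier results of these data known. A result for 1 gene outside the family is not reported here.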

Additional observations from a re-analysis of the deposited data

Results flagged for a closer look

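In 64 groups of 4 libraries, each a member in its highest region at 1 age, 1 library stood apart from the other 3 in 8 groups by Dixon's criterion, where chance alone flags about 1 group in 20. Defb20 (4379 CPM, the others 2454 to 2702) and Defb42 (710.4 CPM, the others 615 to 625) were high in initial segment library 4 of the 3-month-old mice. Defb22 was low in corpus library 3 of the 3-month-old mice (916 CPM, the others 1289 to 1352), and Defb43 was high in corpus library 1 of the 21-month-old mice (229 CPM, the others 156 to 160.1). In the caput of 21-month-old mice, Defb18 had a high library (233 CPM, number 2), Defb12 another (487 CPM, number 3) and Defb29 another (73.3 CPM, number 1), and Defb45 had a low one (63.5 CPM, number 4).

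The age difference varied among the epididymal regions in 9 members by the edgeR interaction test over 32 libraries. The adjusted p-values were 4.69e-05 for Defb19, 0.00122 for Defb39, 0.0175 for Defb20, 0.0234 for Defb15, 0.0289 for Defb40, 0.0389 for Defb26, 0.042 for Defb38, 0.0451 for Defb36 and 0.0485 for Defb1. For Defb40 the log2 differences with age were 2.44 in caput, -0.31 in corpus and 0.34 in cauda, and for Defb15, which averaged below 2 CPM outside the caput, they were -2.0 in initial segment, 0.08 in caput, -0.15 in corpus and -2.24 in cauda.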

How the results depend on the processing

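Counts of members called with age moved more with the settings than counts between neighbouring regions, which stayed within 1.5 times under every alternative but that of age: at 21 months 21 were called between testis and efferent ductules and 20 between cauda and vas deferens, against 13 and 31 at 3 months. Without the old efferent ductule libraries 2 and 3, chosen after seeing the data, the first count was 15. The refit counts with age that follow lack the share of all genes called in the same fit. That share can move: without those libraries all genes called higher in the efferent ductules went from 4.0% to 13.4%. With age, the count in the efferent ductules was 5, and it was 2 under filterByExpr, 3 with the replicate block, 11 in a fit of all 56 libraries, 13 at an unadjusted p under 0.05 and 1.5-fold, 2 without libraries 2 and 3, and 0 to 7 with 1 library left out. In the initial segment (1 called) it was 2 by DESeq2, 0 with library size only, filterByExpr or the replicate block, 4 with no filter, 2 in the fit of all libraries, 5 at the unadjusted threshold and 0 to 3 with 1 library left out. In the corpus (5) it was 13 with no filter, 9 with the replicate block, 1 in the fit of all libraries, 11 at the unadjusted threshold and 3 to 7 with 1 left out. In the cauda (0) it was 2 by DESeq2, 2 with no filter, 1 in the fit of all libraries, 7 at the unadjusted threshold and 0 to 1 with 1 left out. Leaving out 1 library gave 3 to 13 in the caput (8), and 5 to 11 in the vas deferens (11), and leaving out 1 replicate number from every group gave 3 to 7 for the interaction (9). The block gave 11 in the caput, 8 in the vas deferens, 0 in the testis and cauda, 7 for the interaction, and 11 between corpus and cauda, where 10 were called without it. By the rule used here the numbers paired no other neighbouring regions, which does not show that pairing was absent.

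Of single members, 13 differences with age changed sign in 26 refits, and 11 of the 13 were not called to begin with. In the initial segment the fit of all libraries gave -0.00557 for Defb41, -0.0888 for Defb20, -0.102 for Defb25 and -0.0798 for Spag11b. In the caput, library size only gave 0.12 for Defb29 and 0.15 for Defb30, and Defb30 was 0.0097 with the replicate block and 0.0198 in the fit of all libraries. In the efferent ductules, without libraries 2 and 3, Defb25 was at -0.0136 and Spag11b at -0.28. With 1 library left out, log2 differences ranged for Defb18 from -0.737 to 0.223 in the initial segment, Defb20 from -0.0441 to 0.269 in the initial segment, Defb29 from -0.143 to 0.12 in the caput, Defb25 from -0.0481 to 0.103 in the initial segment, Spag11b from -0.0533 to 0.332 in the initial segment, Defb9 from -0.124 to 0.244 in the cauda, Defb15 from -0.0248 to 0.182 in the caput, Defb48 from -0.166 to 0.0498 in the initial segment, Defb47 from -0.536 to 0.234 in the initial segment and Defb30 from -0.125 to 0.209 in the caput. The causes were not tested. The median library total was 16384049 counts, so members below 1 CPM rest on few reads.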

Other observations

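Several members had their highest value in the same library of a group. Of the 4 young initial segment libraries, number 4 was the highest for Spag11b (2869.8 CPM, the others 1383 to 1798), Defb47 (879 CPM, the others 239.5 to 402), Defb18 (179.8 CPM, the others 29.0 to 83.4), Defb45 (35.9 CPM, the others 13.8 to 18.9), Spag11a (22.8 CPM, the others 5.53 to 8.78) and Defb15 (5.0 CPM, the others 0.284 to 0.975), and it was the lowest for Defb21 and Defb48. The summed caput markers were 27300 CPM in that library and 15400 to 18000 in the others.

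In the old caput, library 2 was the highest for genes of corpus and cauda. It read 114 CPM for Defb22 (the others 3.30 to 44.7), 19.0 CPM for Defb38 (0.708 to 7.92), 12.7 CPM for Defb43 (0.755 to 4.70), 9.23 CPM for Defb26 (0.769 to 4.02) and 7.91 CPM for Defb40 (0.755 to 3.40). The summed corpus markers were 3220 CPM in library 2 and 2470 to 2900 in the others.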
